A study of Mus musculus with 12 samples.

Results

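Genes that build or coat mitotic chromosomes, 10 in number, were followed in mouse hepatocytes: the 8 condensin subunit genes Smc2, Smc4, Ncapd2, Ncapg, Ncaph, Ncapd3, Ncapg2 and Ncaph2, the topoisomerase gene Top2a, and Mki67, which encodes Ki-67. They were chosen by gene name, and all 10 were found among the 31053 gene rows of the deposited count table. The hepatocytes came from chow-fed wild-type C57BL/6J mice aged 3 months, with 3 mice in each of 4 groups. Every mouse had received an adeno-associated virus by tail vein: P16 mice received AAV8-TBG-eGFP-P16, and GFP mice received the control virus AAV8-TBG-eGFP. The TBG promoter is active in hepatocytes, so the transgene was aimed at that cell type, and the P16 vector was meant as a model of hepatocyte senescence. P16 is an inhibitor of the cyclin D-dependent kinases CDK4 and CDK6. Hepatocytes were isolated by collagenase perfusion either without surgery (0 h) or, in other mice, 48 h after a 70% partial hepatectomy, in which that share of the liver is removed, and their poly(A) RNA was sequenced. No source used here gives the sex of the animals.

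Condensins are ring-shaped ATPases that fold chromatin into loops as cells enter mitosis. SMC2 and SMC4 form the core of both vertebrate complexes; condensin I adds NCAPD2, NCAPG and the kleisin NCAPH, and condensin II adds NCAPD3, NCAPG2 and the kleisin NCAPH2. Condensin II resides in the nucleus through interphase, whereas condensin I reaches the chromosomes after the nuclear envelope breaks down. Topoisomerase II alpha passes one DNA duplex through another and so disentangles sister chromatids, and Ki-67 coats mitotic chromosomes, keeps them apart and is the standard histological marker of cycling cells. After partial hepatectomy the remaining hepatocytes, which are quiescent in the adult liver, re-enter the cell cycle nearly in synchrony.

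Promoter sequences are shown for the genes at both ends of the range of responses described below: Top2a, Mki67 and Ncapg, which had the highest changes after hepatectomy in GFP mice, and Ncaph2 and Ncapd3, which had the lowest. The sequences are from RefSeq (GRCm38.p6), read 5′ to 3′ on the strand of the gene, and end at or shortly before the annotated start. Bases that lie in an annotated exon of any gene were left out, so some windows are short. Capitals mark matches on either strand to 3 motifs common in promoters of cell cycle genes: the CHR element (searched as TTTGAA or TTCGAA), the CCAAT box (CCAAT), and an E2F-like element (TTGGCGC or TTCCCGC), which can share bases with a CCAAT box. The windows are chr11:99024190-99024439 (minus strand), chr7:135716380-135716629 (minus), chr5:45669709-45669918 (plus), chr15:89355660-89355718 (plus) and chr9:27030066-27030164 (plus).
Top2a: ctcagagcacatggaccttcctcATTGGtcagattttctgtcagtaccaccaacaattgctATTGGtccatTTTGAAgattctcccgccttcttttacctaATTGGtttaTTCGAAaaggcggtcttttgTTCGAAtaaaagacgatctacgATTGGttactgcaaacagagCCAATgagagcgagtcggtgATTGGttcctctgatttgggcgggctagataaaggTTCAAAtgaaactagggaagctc
Mki67: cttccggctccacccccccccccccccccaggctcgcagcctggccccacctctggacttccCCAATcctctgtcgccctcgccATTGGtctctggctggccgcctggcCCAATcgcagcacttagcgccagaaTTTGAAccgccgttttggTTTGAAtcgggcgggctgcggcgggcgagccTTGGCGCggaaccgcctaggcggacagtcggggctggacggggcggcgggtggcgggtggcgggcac
Ncapg: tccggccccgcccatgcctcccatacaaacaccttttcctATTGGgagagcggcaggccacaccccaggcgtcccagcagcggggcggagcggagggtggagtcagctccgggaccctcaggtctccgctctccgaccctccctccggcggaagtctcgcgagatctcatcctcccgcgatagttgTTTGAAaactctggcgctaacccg
Ncaph2: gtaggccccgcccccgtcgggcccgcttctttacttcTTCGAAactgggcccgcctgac
Ncapd3: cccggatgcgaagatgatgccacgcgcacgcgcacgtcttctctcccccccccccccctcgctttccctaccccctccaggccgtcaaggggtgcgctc

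The Top2a window held 4 CHR and 6 CCAAT matches, and the Mki67 window held 2 CHR matches, 3 CCAAT matches and 1 E2F-like match. In the full 250 bases before the start, exon bases included, a CHR match was found in 7 of the 9 genes with a RefSeq promoter entry, against 17.1% of 32851 mouse promoters of that length. A CCAAT match was found in 5 of 9 genes, against 33.8% of promoters, and an E2F-like match in 4 of 9, against 5.62%. Both a CHR and a CCAAT match were found in 5 of 9 genes, Top2a, Mki67, Ncapg, Ncapd2 and Smc2, against 6.02% of promoters. Ncaph2 held a CHR match without a CCAAT match, Ncapd3 held only an E2F-like match, in exon bases left out of the printed window, and Ncaph held none of these letters. These matches describe the letters in the windows and are not evidence of binding.

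**Figure D1:**
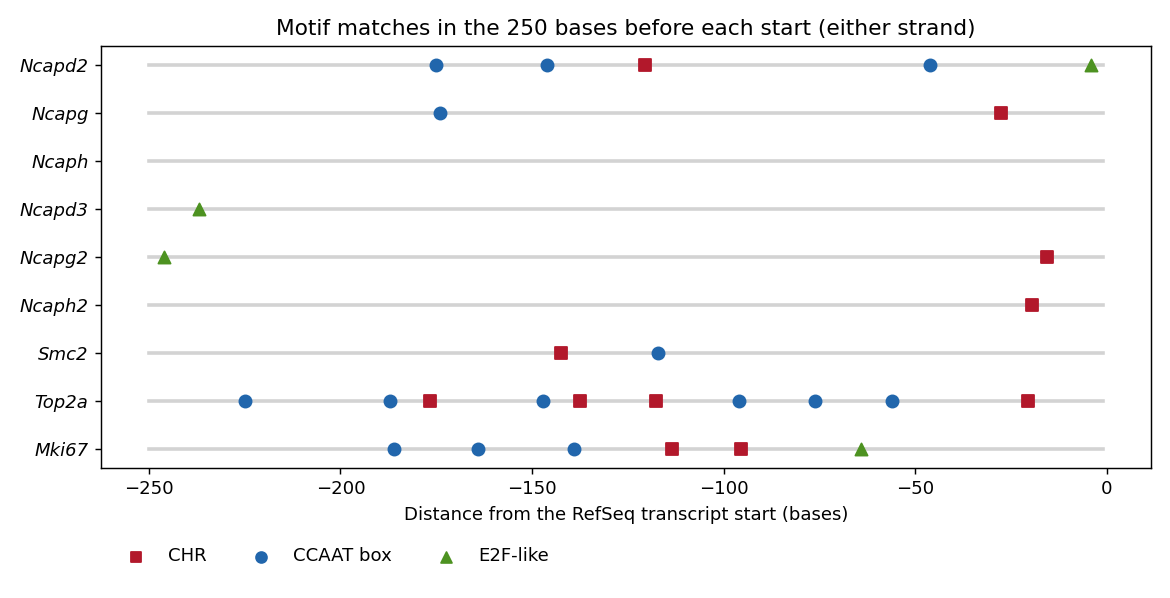
Positions of CHR, CCAAT box and E2F-like matches on either strand in the 250 bases before the RefSeq transcript start of 9 genes; the x axis is the distance from the start in bases and each symbol is 1 match. Top2a carries 4 CHR and 6 CCAAT matches, Ncaph2 a single CHR match, and Ncaph none.

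Reads in genes ranged from 14617049 to 25409451 per library, and replicates of a group correlated at 0.950 to 0.981 (log CPM across genes, which are not independent). Reads of Cdkn2a, the gene of P16, were 105 to 620 in the P16 libraries and 0 to 5 in the GFP libraries. The hepatocyte markers Alb, Apob, Ttr, Cps1, Serpina1c, Hnf4a and Asgr1 were detected in every group. GFP mouse 2 at 0 h stood apart by macrophage markers (summed level 200.3 CPM, against 32.8 and 77.0 CPM in the other mice of its group). P16 mouse 2 at 48 h stood apart by neutrophil markers (summed level 211.6 CPM, against 70.1 and 77.5 CPM). Of these 6 neutrophil markers 2, Mpo and Ly6g, had no reads in its group. Levels are given in CPM, read counts scaled to library size after TMM normalization. Changes are log2 fold changes from the edgeR quasi-likelihood test over 12257 genes, with their standard error (SE) and a Benjamini-Hochberg adjusted p; passing means an adjusted p under 0.05.

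Hepatectomy was followed by higher levels of nearly all the chromosome genes in both arms. In P16 mice 9 of the 10 genes were higher at 48 h than at 0 h, where 19.6% of all genes tested passed in that direction. In GFP mice all 10 were higher, where 17.2% of all genes passed in that direction. The 48 h mice all lay above the 0 h mice for 9 of the 10 genes in P16 mice (25.5% of all genes) and for all 10 in GFP mice (25.0% of all genes). The median log2 change of the 10 genes was 4.80 in P16 mice and 4.19 in GFP mice, beside 0.00 and -0.01 over all genes tested. Topoisomerase II alpha and Ki-67 were nearly absent before surgery and ranked 7 and 16 of 12257 genes by fitted log2 change in P16 mice and 97 and 39 in GFP mice, while the condensin II genes Ncaph2 and Ncapd3 already had 261 to 2197 reads per group at 0 h and changed least. All 10 genes passed the filter on low counts, but 5 of them (Ncapg, Ncaph, Ncapg2, Top2a and Mki67) passed it only through the 48 h libraries, against 91.6% of all tested genes that would pass on the 0 h libraries alone. The counts of genes higher at 48 h are therefore a description of these 10 genes. In RNA from whole cell isolates, more cells expressing a gene and more RNA of it per cell cannot be told apart.

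**Figure D2:**
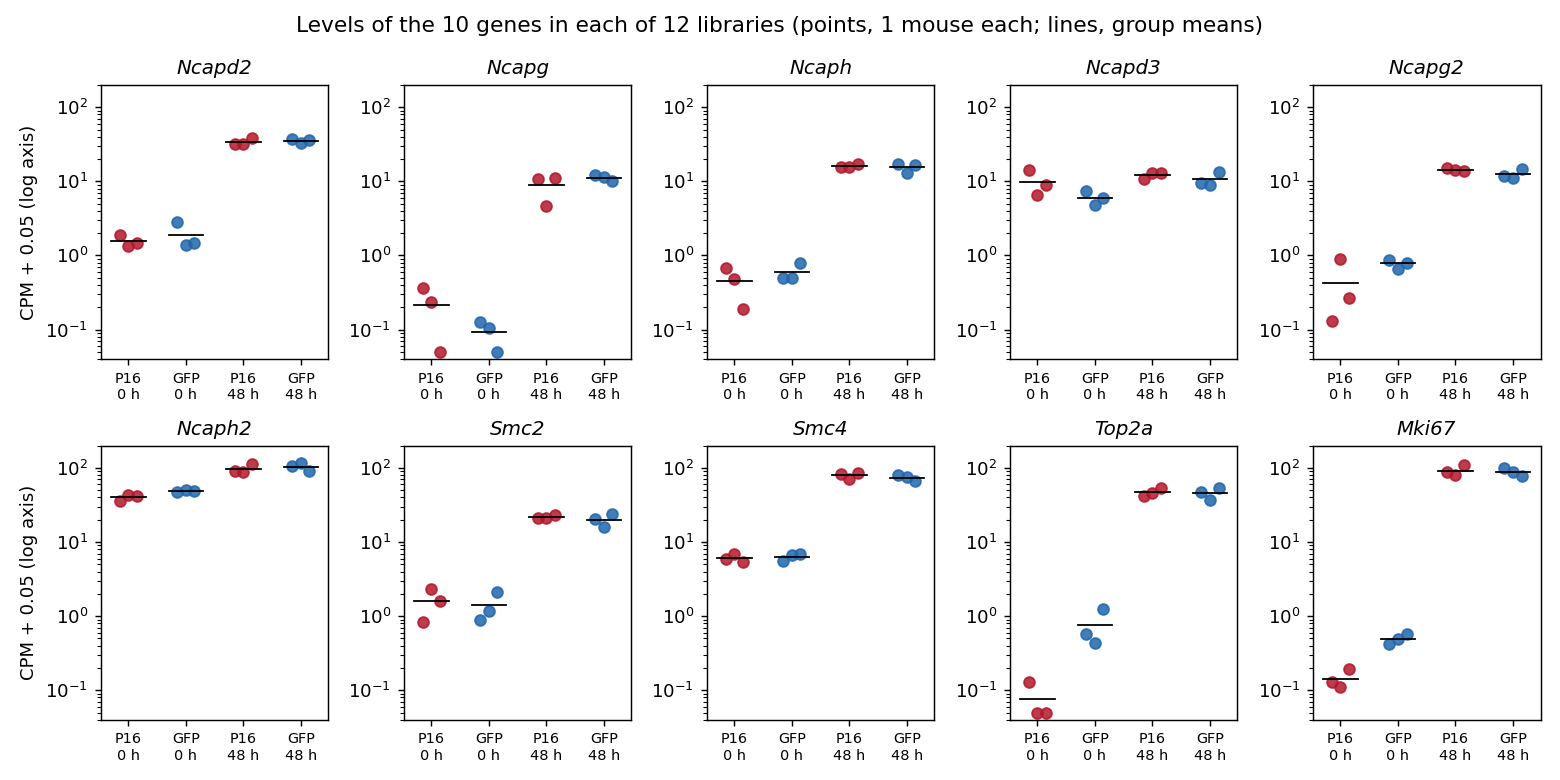
Level of each of the 10 genes in each library, as CPM plus 0.05 on a log axis; each point is 1 mouse, lines are group means, and the groups run from 0 h to 48 h with P16 left of GFP. The 0 h and 48 h points are separate in every panel except that of Ncapd3 in P16 mice, and the P16 and GFP points mix at 48 h in all 10 panels.

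The SMC core rose in both arms. Smc2, the ATPase subunit shared by both condensins, had 20.8, 21.2 and 23.5 CPM in P16 mice at 48 h, against 0.794, 2.25 and 1.56 CPM at 0 h. In GFP mice it had 20.2, 15.96 and 24.0 CPM at 48 h, against 0.828, 1.12 and 2.10 CPM at 0 h. The lowest 48 h mouse was several times above the highest 0 h mouse in each arm, with log2 changes of 3.79 (SE 0.30, adjusted p = 2.76e-08) in P16 mice and 3.90 (SE 0.31, adjusted p = 2.75e-08) in GFP mice. Smc4, its partner ATPase, had 84.0, 72.0 and 86.4 CPM in P16 mice at 48 h, against 5.88, 6.87 and 5.38 CPM at 0 h. In GFP mice Smc4 had 80.9, 74.6 and 66.6 CPM at 48 h, against 5.50, 6.59 and 6.81 CPM at 0 h. The spread among mice of a group was narrow for Smc4, and its log2 change was 3.74 (SE 0.15, adjusted p = 1.54e-12) in P16 mice and 3.55 (SE 0.15, adjusted p = 3.63e-12) in GFP mice.

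The 3 subunits particular to condensin I also rose in both arms. Ncapd2, which encodes a HEAT-repeat subunit, had 32.1, 31.7 and 38.2 CPM in P16 mice at 48 h, against 1.83, 1.28 and 1.42 CPM at 0 h. In GFP mice it had 37.3, 33.1 and 35.8 CPM at 48 h, against 2.79, 1.34 and 1.42 CPM at 0 h. The times did not overlap in either arm, and the log2 change was 4.51 (SE 0.23, adjusted p = 5.21e-11) in P16 mice and 4.28 (SE 0.22, adjusted p = 8.39e-11) in GFP mice. Ncaph, the kleisin that closes the condensin I ring, had 15.7, 15.8 and 17.1 CPM in P16 mice at 48 h, against 0.635, 0.426 and 0.142 CPM at 0 h. In GFP mice Ncaph had 17.1, 12.95 and 16.7 CPM at 48 h, against 0.452, 0.447 and 0.748 CPM at 0 h. Its log2 change was 5.33 (SE 0.32, adjusted p = 3e-10) in P16 mice and 4.83 (SE 0.30, adjusted p = 6.5e-10) in GFP mice, with no overlap between times.

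Ncapg, the other HEAT-repeat subunit of condensin I, was at the limit of detection before surgery. It had 10.6, 4.62 and 11.1 CPM in P16 mice at 48 h, against 0.318, 0.182 and 0 CPM at 0 h. In GFP mice it had 12.0, 11.2 and 10.1 CPM at 48 h, against 0.0753, 0.0558 and 0 CPM at 0 h, a total of 816 reads against 2 reads. The ratio of these read sums, scaled for library size, was 250 in GFP mice (95% interval 69.1 to 2071, counting error only). The edgeR log2 change was 5.70 (SE 0.52, adjusted p = 1.05e-07) in P16 mice and 7.75 (SE 0.61, adjusted p = 2.15e-08) in GFP mice. P16 mouse 2 at 48 h, one of the libraries that stood apart, had less than the other 48 h mice of both arms. Ncapg shares 944 exon bases (13.4% of its own) with Lcorl on the opposite strand. The strand setting of the counting is not given. Whether reads in those bases were counted for either gene or left out as ambiguous is therefore not known. Lcorl itself averaged 9.01 ± 0.544 CPM in P16 mice at 48 h and 7.13 ± 0.365 CPM at 0 h, and 9.43 ± 1.73 CPM in GFP mice at 48 h and 5.79 ± 1.33 CPM at 0 h (SD, n = 3 each).

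The condensin II subunits did not move as a block. Ncapg2, the HEAT-repeat subunit that corresponds to Ncapg, had 14.9, 14.2 and 13.7 CPM in P16 mice at 48 h, against 0.0794, 0.851 and 0.212 CPM at 0 h. In GFP mice it had 11.6, 11.2 and 14.8 CPM at 48 h, against 0.828, 0.614 and 0.748 CPM at 0 h. It rose by log2 5.10 (SE 0.38, adjusted p = 7.87e-09) in P16 mice and 4.10 (SE 0.35, adjusted p = 4.98e-08) in GFP mice, changes of the size seen for condensin I. Ncaph2, the condensin II kleisin, had 92.0, 87.3 and 111.8 CPM in P16 mice at 48 h, against 36.1, 43.5 and 41.8 CPM at 0 h. In GFP mice Ncaph2 had 104.9, 118.0 and 90.4 CPM at 48 h, against 47.7, 50.7 and 48.9 CPM at 0 h. The times did not overlap, but the log2 change was only 1.26 (SE 0.13, adjusted p = 5.71e-07) in P16 mice and 1.09 (SE 0.13, adjusted p = 3.79e-06) in GFP mice.

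Ncapd3, the HEAT-repeat subunit that corresponds to Ncapd2, had 10.9, 12.8 and 13.1 CPM in P16 mice at 48 h, against 14.2, 6.51 and 8.85 CPM at 0 h. In GFP mice it had 9.55, 8.93 and 13.2 CPM at 48 h, against 7.30, 4.69 and 5.99 CPM at 0 h. The times overlapped in P16 mice, through P16 mouse 1 at 0 h, and not in GFP mice. Its log2 change was 0.32 (SE 0.25, adjusted p = 0.337) in P16 mice, which did not pass, and 0.82 (SE 0.26, adjusted p = 0.0196) in GFP mice, which did. Both calls changed when single libraries were left out. Without P16 mouse 1 at 0 h the P16 change was 0.67 (adjusted p = 0.0421). The GFP change missed the threshold without GFP mouse 2 at 0 h (adjusted p = 0.0708), GFP mouse 3 at 0 h (0.0502) or GFP mouse 3 at 48 h (0.107). Over all 20 alternatives, the GFP change passed in 16. The other 9 genes kept their calls in both arms in all 20 alternatives, among them leaving out each library and leaving out both libraries that stood apart. The Ncaph2 value carries an uncertainty of its own, because the gene shares 829 exon bases (19.7% of its own) with Sco2 and 535 (12.7%) with Tymp, both on the opposite strand. Sco2 was listed at 0 in every library, and Tymp averaged 8.21 ± 2.16 CPM in P16 mice at 48 h and 52.1 ± 8.37 CPM at 0 h, and 11.2 ± 3.30 CPM in GFP mice at 48 h and 38.1 ± 9.02 CPM at 0 h (SD, n = 3 each). Tymp thus moved opposite to Ncaph2 in both arms. Smaller overlaps with short RNA genes on the same strand are annotated for Ncapd2 (Scarna10 and Gm28967) and Top2a (Gm23451, 122 bases).

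Top2a and Mki67 showed the widest difference between times in P16 mice. Top2a had 41.3, 46.5 and 53.5 CPM in P16 mice at 48 h, against 0.0794, 0 and 0 CPM at 0 h, or 2726 reads against 1 read. In GFP mice it had 47.7, 37.4 and 53.6 CPM at 48 h, against 0.527, 0.391 and 1.20 CPM at 0 h. The edgeR log2 change was 6.07 (SE 0.28, adjusted p = 3.24e-11) in GFP mice. In P16 mice it was 10.61 (SE 0.44, adjusted p = 6.25e-12), a fitted value that rests on the single 0 h read, and the scaled ratio of read sums was 2041 (95% interval 366 to 8.07e+04, counting error only).

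Mki67 had 87.1, 79.3 and 110.7 CPM in P16 mice at 48 h, against 0.0794, 0.0608 and 0.142 CPM at 0 h. In GFP mice Mki67 had 98.8, 88.0 and 78.9 CPM at 48 h, against 0.377, 0.447 and 0.524 CPM at 0 h. No 0 h mouse of either arm reached 1% of the lowest 48 h mouse of its arm. The log2 change was 9.86 (SE 0.27, adjusted p = 1.11e-14) in P16 mice and 7.60 (SE 0.22, adjusted p = 2.94e-14) in GFP mice, and in both arms Mki67 had the lowest p of all 12257 genes tested.

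**Figure D3:**
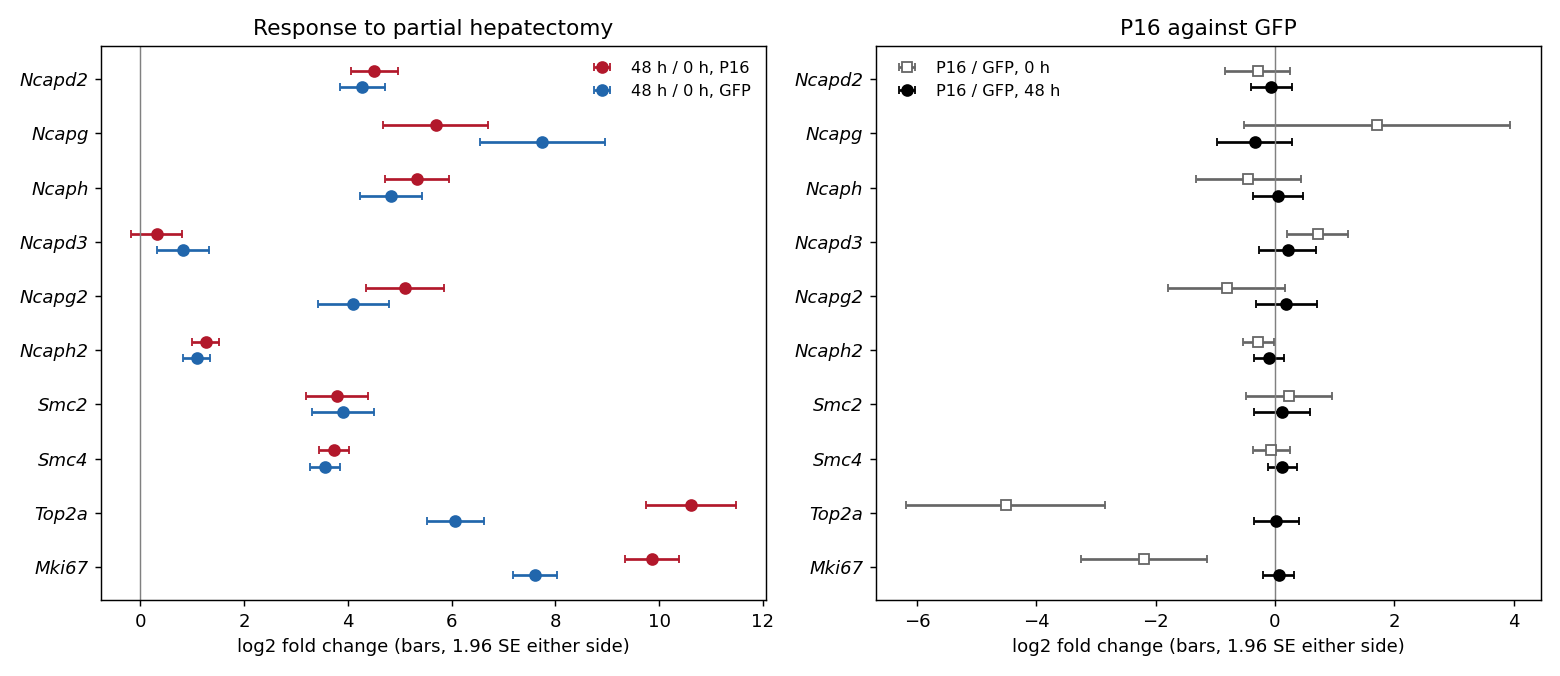
Log2 fold changes of the 10 genes with bars to the 95% interval (left, 48 h against 0 h in P16 and GFP mice; right, P16 against GFP, each time apart). The responses run from below 1 for Ncapd3 to 10.61 for Top2a in P16 mice; between the arms, Top2a (-4.51) and Mki67 (-2.19) lie low at 0 h, and all intervals at 48 h cross 0.

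Before surgery the arms were compared to ask whether P16 altered resting levels. One of the 10 genes passed, Top2a, lower in P16 mice, where 0.0979% of all genes tested passed in that direction. That share is not a like comparison. Top2a passed the low-count filter only through the 48 h libraries, whereas 91.6% of all tested genes would pass on the 0 h libraries alone. With only the groups compared, Top2a did not pass the filter and was not tested. Top2a reads were 1, 0 and 0 in P16 mice, against 7, 7 and 16 in GFP mice. The scaled ratio of read sums was 0.0344 (95% interval 8.44e-04 to 0.207, counting error only), and the log2 fold change was -4.51 (SE 0.85, adjusted p = 0.0311). The call was lost when any single P16 mouse at 0 h was left out (adjusted p = 0.0542, 0.0856 and 0.128 without mouse 1, 2 and 3), without GFP mouse 3 at 0 h (0.113) and with limma-voom (0.246). An alternative that was not planned left out the 2 libraries that stood apart, GFP mouse 2 at 0 h and P16 mouse 2 at 48 h. The call was kept there (log2 fold change -4.87, adjusted p = 0.0188). Mki67 had 1, 1 and 2 reads in P16 mice, against 5, 8 and 7 reads in GFP mice. Its groups did not overlap either, but its log2 fold change of -2.19 (SE 0.54, adjusted p = 0.116) did not pass.

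Among the condensins at 0 h, Ncaph2 was lower in every P16 mouse than in every GFP mouse, with a log2 fold change of -0.28 (SE 0.13) that did not pass (adjusted p = 0.363). With Top2a and Mki67, 3 of 10 genes were lower in P16 mice with no overlap, where 6.84% of all genes tested were. Of these 3, Top2a and Mki67 passed the low-count filter only through the 48 h libraries. Ncapd3 had a log2 fold change of 0.72 (SE 0.26, adjusted p = 0.252), with overlapping groups. Ncapg had 7 reads in P16 mice against 2 reads in GFP mice, a scaled ratio of 3.61 whose 95% counting interval of 0.688 to 35.7 includes equality. For Ncapd2, Ncaph, Ncapg2, Smc2 and Smc4 the groups overlapped and adjusted p values were 0.504 to 0.913.

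Markers of other liver cells were also compared between the 0 h groups. The summed level of 12 macrophage and Kupffer cell markers was 27.3, 40.4 and 28.2 CPM in P16 mice, against 32.8, 200.3 and 77.0 CPM in GFP mice. The sums overlapped through GFP mouse 1. All 12 were detected in both groups and had a negative log2 fold change (median -1.67). Of the 12, 3 were lower in P16 mice without overlap (6.84% of all genes tested). The adjusted test was passed by 0 of them, where 0.0979% of all genes passed as lower. The sum of 10 sinusoidal endothelial markers was 57.5 to 67.5 CPM in P16 mice, against 78.5 to 143.6 CPM in GFP mice. Their log2 fold changes ran from -2.05 to -0.43. Of these 10, 5 were lower in P16 mice without overlap (6.84% of all genes tested), and 0 passed the adjusted test. The part of these cells in the 0 h difference of Top2a and Mki67 was not tested. Lymphocyte markers summed to 0 to 1.20 CPM in P16 mice and 0.527 to 3.68 CPM in GFP mice.

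At 48 h no difference between the arms passed the test. Of the 10 genes 0 passed the edgeR test, where 2.28% of all genes tested did, and 0 had an unadjusted p under 0.05, where 17.5% did; DESeq2 and limma-voom also called 0. The P16 and GFP mice overlapped for each of the 10 genes. Log2 fold changes ran from -0.34 (SE 0.32) for Ncapg to 0.21 (SE 0.25) for Ncapd3. Top2a averaged 47.1 ± 6.14 CPM in P16 mice and 46.2 ± 8.19 CPM in GFP mice (SD, n = 3 each), a log2 difference of 0.03 with a 95% interval of -0.34 to 0.40. Mki67 averaged 92.4 ± 16.3 CPM in P16 mice and 88.6 ± 9.92 CPM in GFP mice, a log2 difference of 0.06 with an interval of -0.20 to 0.32. The interval was narrowest for Smc4 (-0.12 to 0.37) and widest for Ncapg (-0.96 to 0.29). Neutrophil markers summed to 70.1 to 211.6 CPM in P16 mice and 7.46 to 14.6 CPM in GFP mice at this time. Of the 6 neutrophil genes summed, Mpo and Ly6g had no reads in P16 mice. Only 1 of the 6 was tested, and it passed, higher in P16 mice (log2 fold change 3.35). Macrophage markers summed to 67.5 to 89.4 CPM in P16 mice and 42.4 to 101.7 CPM in GFP mice. The part of neutrophils and macrophages in the levels at 48 h was not tested.

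The response to hepatectomy was also compared between the arms directly, as the change in P16 mice less the change in GFP mice. Of the 10 genes 0 passed, where 0.0979% of all genes tested did; DESeq2 called 1 (Top2a) and limma-voom 0. Top2a had an interaction of 4.54 (SE 0.88, adjusted p = 0.0532) and Mki67 of 2.25 (SE 0.56, adjusted p = 0.103), the only 2 of the 10 with an unadjusted p under 0.05, against 11.8% of all genes. The arms differed by 0.03 and 0.06 at 48 h, so nearly all of both values lay in the 0 h libraries, in which the P16 mice had 1 read of Top2a and 4 of Mki67. The Top2a value lay close to the threshold, its adjusted p running from 1.27e-04 to 0.208 across the alternatives, and passed without the 2 libraries that stood apart (4.90, adjusted p = 0.0247) and without GFP mouse 1 (0.0399) or GFP mouse 2 (0.0219) at 0 h or P16 mouse 3 at 48 h (0.0467). Ncapg had an interaction of -2.05 (SE 1.19, adjusted p = 0.528) and Ncapg2 of 1.00 (SE 0.56, adjusted p = 0.518), and the other 6 genes lay between -0.50 and 0.50.

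Levels of different genes were set side by side per kilobase of annotated exon. Before surgery Ncaph2 was far above the other genes, at 9.64 ± 0.920 CPM per kilobase in P16 mice and 11.7 ± 0.360 in GFP mice (SD, n = 3 each). Smc4 and Ncapd3 followed at 0.594 to 1.80 CPM per kilobase in both arms, with overlapping spreads in P16 mice; then came Ncapd2 and Smc2, which overlapped in both arms, and Ncaph, which overlapped Smc2. Top2a, Ncapg2, Mki67 and Ncapg were at most 0.133 CPM per kilobase in every mouse. At 48 h the order in both arms was Ncaph2, Smc4, Mki67, Ncapd2 and Top2a, Smc2 and Ncaph, and last Ncapg, Ncapd3 and Ncapg2. Ncapd2 and Top2a overlapped in both arms at 48 h, as did Smc2 and Ncaph, Top2a and Smc2 overlapped in GFP mice, and Smc4 stayed below Ncaph2 and above Mki67 in every mouse.

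The balance of condensin I and II messages shifted after hepatectomy in both arms for the Ncapd2 and Ncapd3 pair and for the kleisins. Per kilobase, Ncapd2 made up 77.8 ± 1.69% of the summed Ncapd2 and Ncapd3 level in P16 mice at 48 h, against 16.8 ± 2.95% at 0 h. In GFP mice its share was 81.0 ± 3.11% at 48 h, against 27.3 ± 4.77% at 0 h (SD, n = 3 each). The kleisins shifted in the same direction but from another starting point: Ncaph made up 14.1 ± 1.01% of the Ncaph and Ncaph2 sum in P16 mice at 48 h, against 0.986 ± 0.679% at 0 h, and 12.9 ± 2.90% in GFP mice at 48 h, against 1.08 ± 0.340% at 0 h. Ncapg and Ncapg2 were at similar levels at 48 h, with Ncapg at 44.8 ± 11.8% of their sum in P16 mice and 55.6 ± 5.80% in GFP mice. At 0 h, where both genes had few reads, the Ncapg share was 0 to 84.9% in P16 mice, so the times overlapped. In GFP mice it was 0 to 11.3% at 0 h, without overlap. The Ncapd2 share at 0 h was 13.9 to 19.8% in P16 mice and 23.0 to 32.4% in GFP mice, so the arms did not overlap; this pattern was seen in the data and was not tested. Smc4 exceeded Smc2 3.90-fold in P16 mice and 4.01-fold in GFP mice at 48 h, per kilobase. Exon bases that Ncaph2 shares with Sco2 and Tymp, and Ncapg with Lcorl, were included in the lengths. The kleisin and Ncapg shares therefore carry the uncertainty of those overlaps.

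**Figure D4:**
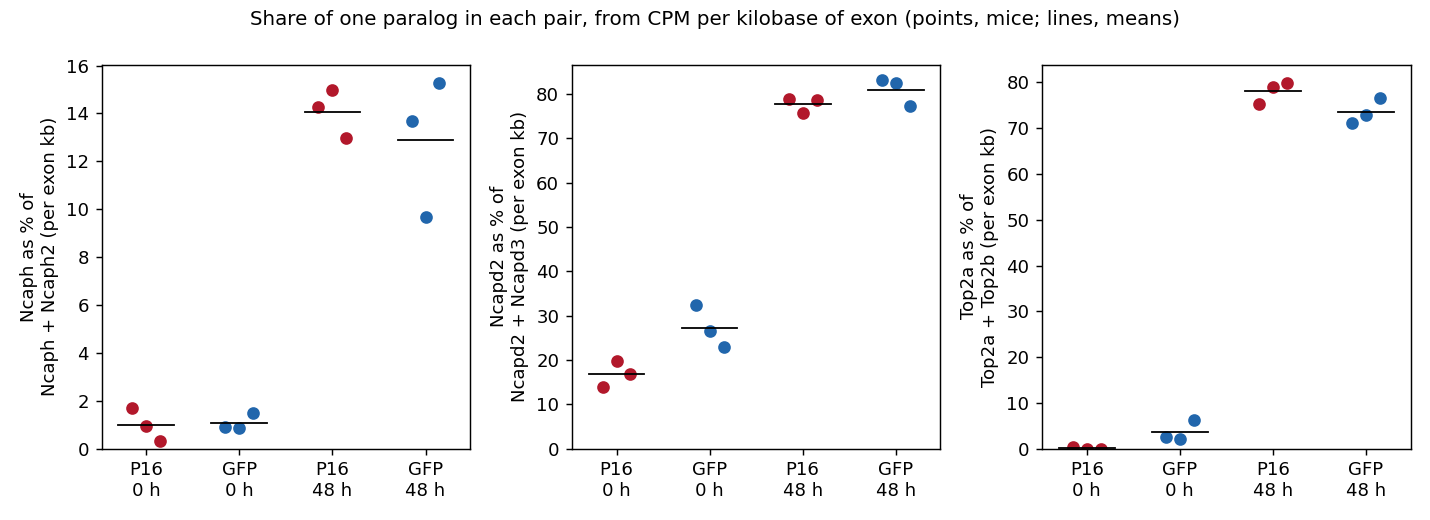
Share of one paralog in the sum of a pair, in percent, from CPM per kilobase of exon; points are mice, lines are group means, and P16 stands left of GFP at each time. At 48 h, over both arms, Ncapd2 is at 75.8 to 83.1% of its pair, Ncaph at 9.66 to 15.3%, and Top2a at 71.2 to 79.9% of the Top2a and Top2b sum.

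Of the 2 type II topoisomerase messages, Top2a was the more abundant at 48 h and Top2b at 0 h. Top2b, the form that most resting cells express, had 22.0, 20.1 and 21.9 CPM in P16 mice at 48 h, against 35.6, 30.0 and 31.9 CPM at 0 h, and it fell by 0.61 on the log2 scale (SE 0.14, adjusted p = 0.00198). In GFP mice Top2b had 31.2, 22.6 and 26.5 CPM at 48 h, against 33.3, 29.6 and 29.1 CPM at 0 h, and its log2 change of -0.19 (SE 0.14, adjusted p = 0.298) did not pass. Nor did the interaction of -0.41 pass. Per kilobase, Top2a made up 78.0 ± 2.42% of the Top2a and Top2b sum in P16 mice at 48 h and 73.6 ± 2.78% in GFP mice at 48 h, and at 0 h at most 0.361% in P16 mice and 6.25% in GFP mice.

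Of 17 genes for kinases, phosphatase partners and chromatin proteins that act on condensins and the chromosome surface, 16 were higher at 48 h in each arm, where 19.6% of all genes tested were higher in P16 mice and 17.2% in GFP mice, with a median log2 change of 5.65 in P16 mice and 5.76 in GFP mice. Nifk, which encodes a nucleolar protein that binds the forkhead-associated domain of Ki-67, was the exception in both arms. Of these 17, 8 passed the low-count filter only through the 48 h libraries (Ccnb1, Ccnb2, Plk1, Aurkb, Ttk, Haspin, Kif4 and Cdca2), so the count is a description, as for the 10 genes above. The highest fitted changes in P16 mice were those of Aurkb, the kinase of the chromosomal passenger complex, of Ccnb1, the mitotic cyclin B1, and of Ttk, the spindle checkpoint kinase. Aurkb and Ttk had 0 reads in P16 mice at 0 h and were at least 103-fold and 64.2-fold higher at 48 h (floor of 3 reads per library), so their place in that order rests on fitted values and not on these bounds. Ccnb1 had 1 read at 0 h in P16 mice, with a scaled ratio of 3790 (95% counting interval 680 to 1.5e+05). In GFP mice the highest fitted changes were those of Ttk (1 read at 0 h, ratio 735, interval 132 to 2.9e+04), Cdca2, which targets a phosphatase to chromatin (3 reads at 0 h, ratio 362, interval 124 to 1759), and of Ccnb2, with a log2 change of 7.43 (SE 0.43, adjusted p = 7.72e-08).

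The 17 genes of cohesin, the related ring complex that holds sister chromatids together, and of its regulators were divided. In P16 mice 7 were higher and 3 lower at 48 h, with a median log2 change of 0.17, where 19.6% of all genes tested were higher and 19.0% lower. In GFP mice 8 were higher and 2 lower, with a median of 0.33, where 17.2% of all genes were higher and 16.4% lower. The cell cycle-bound regulators led: Cdca5, which encodes sororin, Espl1, which encodes separase, Sgo1, a protector of centromeric cohesion, and Esco2, an acetyltransferase of cohesin; these 4 passed the low-count filter only through the 48 h libraries. Cdca5 had 0 reads in P16 mice at 0 h and was at least 43.9-fold higher at 48 h, and its log2 change in GFP mice was 5.97 (SE 0.37, adjusted p = 2.7e-09). Esco2 changed by 6.23 in P16 mice, Espl1 by 5.62 in P16 mice and 5.59 in GFP mice, and Sgo1 by 5.67 in GFP mice. The ring subunit genes moved little by comparison, with Rad21, the kleisin, at 1.23 (SE 0.14) in P16 mice and 1.37 (SE 0.15) in GFP mice. Pttg1, which encodes securin, and the loader subunit Mau2 fell in both arms, and Stag2 fell in P16 mice.

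Of 6 genes of the SMC5/6 complex, another SMC ring, which acts in DNA repair, 3 were higher and 0 lower in P16 mice (all genes, 19.6% and 19.0%), and 2 were higher and 1 lower in GFP mice (all genes, 17.2% and 16.4%). Smc6 rose by 0.81 (SE 0.14, adjusted p = 1.2e-04) in P16 mice and 0.60 (SE 0.13, adjusted p = 0.00211) in GFP mice, and Nsmce1 by 0.92 and 0.71. Nsmce2 rose by 0.62 in P16 mice, and Nsmce3 fell by 0.58 in GFP mice. Between P16 and GFP mice 0 genes of these lists passed the edgeR test at 0 h, at 48 h or in the interaction. Of the 12257 genes tested, 27 passed at 0 h, 280 (2.28%) at 48 h and 12 (0.0979%) in the interaction. At 48 h, 0 of 6 SMC5/6 genes, 1 of 17 regulators and 0 of 17 cohesin genes had an unadjusted p under 0.05 between the arms. Top2b had one as well (edgeR test, unadjusted p = 0.0271), lower in P16 mice. Of all genes tested, 17.5% had such a p at 48 h. At 0 h the 17 regulators had a median log2 fold change of -0.28 between P16 and GFP mice. Without overlap between the arms, 4 of them were lower in P16 mice (6.84% of all genes) and 1 was higher (7.60% of all genes). The lower ones were Aurkb, with 0 reads in P16 mice against 12 in GFP mice (adjusted p = 0.0784), Ccnb1, with 1 against 22 (adjusted p = 0.159), and Plk1 and Incenp, with log2 fold changes of -2.41 and -1.19 (adjusted p = 0.0899 and 0.0839). The higher one was Nifk, at 0.37 (adjusted p = 0.354), and Kif4, Cdca2, Birc5, Kif22, Rcc1 and Ccnb2 had positive values of 0.04 to 1.59 with overlapping arms. These 11 were named after their values were seen. Of the 4 lower ones, Aurkb, Ccnb1 and Plk1 passed the low-count filter only through the 48 h libraries. Also lower without overlap at 0 h were 2 of 17 cohesin genes and 1 of 6 SMC5/6 genes (6.84% of all genes), and 0 were higher. They were Cdca5, with 0 reads in P16 mice against 7 in GFP mice, Esco1 (log2 fold change -0.39) and Smc6 (-0.25). Cdca5 passed that filter only through the 48 h libraries, and these genes too were named after their values were seen.

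**Figure D5:**
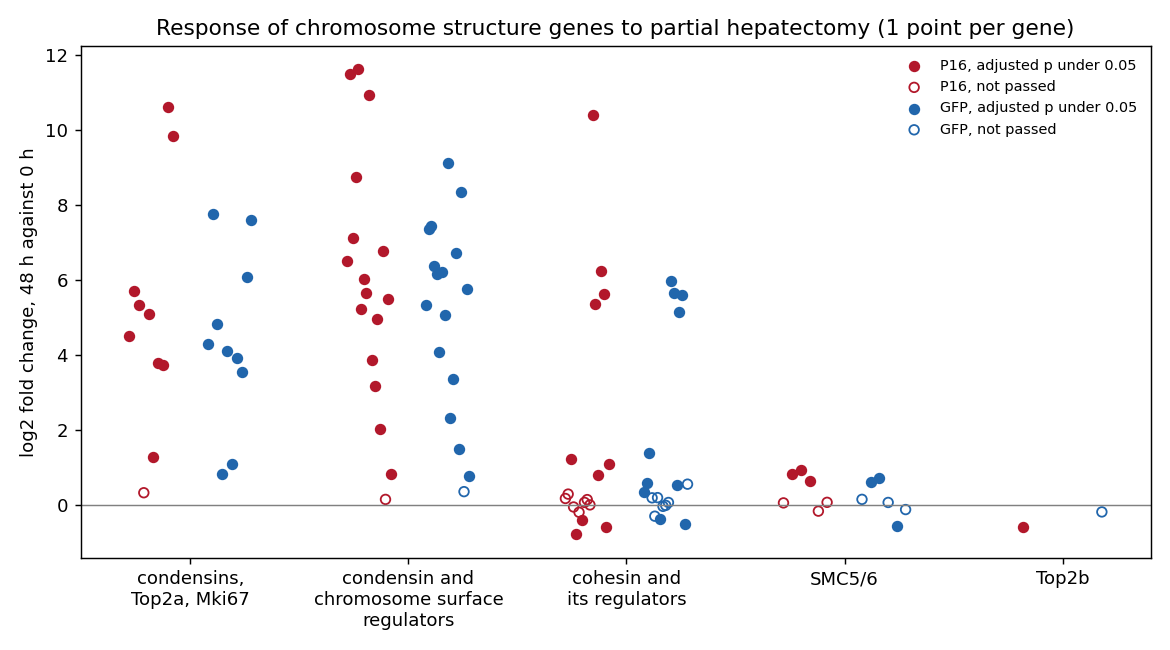
Log2 fold change from 0 h to 48 h of every gene in the lists of chromosome structure genes, 1 point per gene and arm; filled points passed at an adjusted p under 0.05, and values of genes without reads at 0 h are fitted and are no bounds. The 10 genes described here and the regulators lie mostly above 3, while most cohesin and SMC5/6 genes lie near 0.

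The genes whose profile over the 12 libraries was nearest to the mean profile of the 10 genes, by root mean square distance of centred log2 CPM, were Rrm2 (0.261), which encodes a ribonucleotide reductase subunit, Incenp (0.278), Nek2 (0.286), Hist1h3g (0.305) and Tubb6 (0.318), where the median over all genes was 2.40. Hist1h3g had 0 reads in both 0 h groups, so its nearness rests on the 48 h libraries. Top2a was nearest to Aurkb (0.646), Kif2c (0.721) and Uhrf1 (0.804), and Mki67 to Kif2c (0.446), Tpx2 (0.651) and Ckap2l (0.697). Kif2c and Tpx2 encode spindle proteins and Uhrf1 a factor that maintains DNA methylation. These distances describe the same 12 libraries and carry no test. Among the 10 genes themselves, Ncapd2 (0.351) and Ncaph (0.382) lay nearest to the mean profile, and Ncapd3 (2.13), Top2a (2.11) and Mki67 (2.02) farthest. At 48 h, P16 mouse 3 had the highest level of its group for 9 of the 10 genes, and GFP mouse 2 the lowest of its group for 6.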

How the data were processed

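The authors deposited raw read counts, 1 whole number per gene and library, without normalization. Trim Galore, STAR 2.5.0c, SAMtools, Picard, HTSeq and the build mm10 are named per the submitters' processing notes; no source used here states their settings, the annotation or whether counting used strand. Groups came from the labels. Rows that name no gene (no feature, 3.62 to 9.8% of a library; ambiguous, 4.87 to 8.8%) stayed out. All pairs of libraries within a group differed beyond counting noise (chi-square over degrees of freedom at least 15.2), and replicates are separate mice per the labels' protocols.

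Counts were fitted in R 4.3.3 with edgeR 4.0.16 (quasi-likelihood F test, TMM scaling, filterByExpr, robust dispersions) on all 12 libraries as 4 group means, adjusted by Benjamini-Hochberg over 12257 genes. The script was tested on simulated counts. DESeq2 1.42.0, limma-voom (limma 3.58.1), other scalings, no filter, only the groups compared, a replicate block and leaving out each library were alternatives. Leaving out both libraries that stood apart was a further alternative that was not planned. Log2 CPM used a prior count of 0.5. Intervals of read ratios are exact conditional 95% intervals. Exon lengths and overlaps came from GENCODE vM21, promoters from RefSeq (GRCm38.p6).

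The 10 genes, lists and markers were chosen with earlier results of these data known. Named were all 10 genes, of each list up to 3 genes with the largest change past the test, the 5 genes nearest to the mean profile and the 3 nearest to Top2a and to Mki67. Rad21, Esco1, Top2b, Nifk, Smc6 and the genes of the SMC5/6 complex, the falling cohesin genes and the overlapping neighbours were named in addition.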

Additional observations from a re-analysis of the deposited data

How the results depend on the processing

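Depth limited the 0 h values, where Top2a, Mki67 and Ncapg had 1 to 30 reads per group. Of the 10 members, 1 passed between P16 and GFP mice at 0 h, and 0 with limma-voom and with only the groups compared, in which Top2a did not pass the filter; leaving out single libraries gave 0 to 1. The Top2a log2 fold change there ranged from -6.68 to -3.66 and passed in 14 of 19 alternatives. At 48 h, 0 members passed in all alternatives. In the interaction 0 passed, and 1 (Top2a) with library size only (adjusted p = 0.0256), no filter (1.27e-04), DESeq2 (0.0145), the replicate block (0.0351) and leaving out both libraries that stood apart (0.0247); single libraries left out gave 0 to 1. The cause of these changes was not tested. Members higher after hepatectomy were 9 to 10 in each arm over the libraries left out.

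With library size only, the median of all genes moved to -0.22 between P16 and GFP mice at 48 h, and these members changed sign without a call: Ncaph -0.16, Ncapd3 -0.0106, Ncapg2 -0.0295, Smc2 -0.10, Smc4 -0.0868, Top2a -0.19 and Mki67 -0.15. The median of all genes in the interaction moved to -0.25, and Ncapd2 was -0.0160, Ncaph2 -0.0717 and Smc4 -0.0593. The Smc2 interaction was 0.0418 without both libraries that stood apart. With single libraries left out, sign changes of uncalled values gave ranges at 0 h of -0.16 to 0.66 for Smc2, -0.16 to 0.0249 for Smc4 and -0.49 to 0.12 for Ncapd2. At 48 h they were -0.11 to 0.14 for Top2a, -0.0906 to 0.155 for Mki67, -0.0614 to 0.13 for Ncaph and -0.0172 to 0.27 for Smc2. In the interaction they were -0.18 to 0.43 for Ncapd2 and -0.55 to 0.28 for Smc2. With library size only, the median change of all genes after hepatectomy was 0.25 in P16 mice and 0.49 in GFP mice.

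Genes passing over the whole table numbered 27 between the arms at 0 h (5 to 214 over the alternatives), 280 at 48 h (10 to 752), 4731 after hepatectomy in P16 mice (3885 to 5167), 4117 in GFP mice (3011 to 6197) and 12 in the interaction (1 to 227). Same-numbered mice of different groups did not deviate together (correlations -0.0479 to 0.0609 over 18 pairs). With 3 mice per group, low correlations cannot exclude that mice of one number were handled together, so pairing stays unknown. Adding the replicate block did change calls. P16 and GFP mice then differed in 150 genes at 48 h (280 without the block), and the interaction counted 44 genes (12 without it). Top2a passed in the interaction with the block, and the counts of members were otherwise as in the fit without it.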
